A study of Mus musculus with 8 samples.

Results

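Matrix metalloproteinases (Mmp genes), ADAMTS proteases (Adamts genes) and the tissue inhibitors of metalloproteinases (Timp genes) were followed across 8 RNA sequencing libraries of mouse embryonic fibroblasts (MEF), connective tissue cells grown in culture. Members were taken by symbol: every Mmp, Adamts or Timp gene with a plain number in its name, which gave 46 of the 23281 genes in the deposited table. They comprised 23 Mmp, 19 Adamts and 4 Timp genes, and the transcripts of each gene were summed. All cells were of strain C57BL/6, and the study varied Taf4, whose protein is part of TFIID, the complex that helps RNA polymerase II to start at promoters. There were 4 groups of 2 libraries. The control is labelled Taf4 loxp/-, a floxed allele over a null allele, although another label of the same samples calls it Taf4 wild type. The knockout is labelled Taf4 -/-. The full-length rescue is Taf4 -/- carrying a human TAF4 wild-type transgene (hTAF4 wt, clones 1 and 2), and the TAFH-deleted rescue is Taf4 -/- carrying human TAF4 without its TAFH domain (hTAF4 Δ, clones 1 and 2). All groups thus share at least 1 non-functional Taf4 allele by the title labels, and both rescue groups share the knockout background. The promoter that drives the transgenes and the origin of the clones are not given in the sources used here.

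Mmp genes encode zinc-dependent enzymes that cut collagens and other matrix proteins, and most are made as inactive precursors whose propeptide must be removed. Fibroblasts are a main source of these enzymes in connective tissue. The ADAMTS enzymes are secreted relatives with thrombospondin-type repeats that process procollagens and cut proteoglycans such as aggrecan and versican. The TIMP proteins bind the catalytic site of these enzymes and block it.

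The 4 promoters shown belong to the 3 matrix metalloproteinase genes of the chromosome 9 cluster that were measured well enough to test, and to Adamts12, which differed between the rescue forms. Each is the 250 bases before the start of the gene on the plus strand, from RefSeq on GRCm38.p6. Capitals mark TGANTCA, the letters bound by AP-1 (the Fos and Jun proteins), in the Mmp genes. In Adamts12 they mark CAGCTG, an E-box of the kind that E proteins bind, which the series title links to TAF4.
Mmp3, chr9:7445572-7445821: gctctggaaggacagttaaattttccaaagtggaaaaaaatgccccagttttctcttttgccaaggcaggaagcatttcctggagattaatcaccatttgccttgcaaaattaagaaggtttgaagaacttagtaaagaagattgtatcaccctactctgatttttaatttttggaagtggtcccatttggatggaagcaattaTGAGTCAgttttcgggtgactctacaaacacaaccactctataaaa
Mmp10, chr9:7502092-7502341: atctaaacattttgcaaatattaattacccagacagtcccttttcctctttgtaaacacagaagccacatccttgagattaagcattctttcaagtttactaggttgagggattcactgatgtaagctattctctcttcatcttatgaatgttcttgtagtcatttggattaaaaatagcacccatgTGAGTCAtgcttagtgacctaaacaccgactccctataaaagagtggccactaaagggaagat
Mmp13, chr9:7272264-7272513: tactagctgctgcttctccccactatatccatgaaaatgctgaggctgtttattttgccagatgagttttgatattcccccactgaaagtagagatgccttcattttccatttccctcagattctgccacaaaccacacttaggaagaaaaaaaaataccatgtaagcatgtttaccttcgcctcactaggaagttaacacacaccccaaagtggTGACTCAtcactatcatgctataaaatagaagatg
Adamts12, chr15:11064523-11064772: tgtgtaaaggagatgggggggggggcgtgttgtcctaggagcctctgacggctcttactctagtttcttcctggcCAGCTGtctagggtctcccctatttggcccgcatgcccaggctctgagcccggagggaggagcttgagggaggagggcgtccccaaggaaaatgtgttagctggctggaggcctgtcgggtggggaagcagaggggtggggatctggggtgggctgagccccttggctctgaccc
The table of promoters held 32 of the 46 members and 17 of the 27 that were tested. Mmp2 was not among them, so its promoter was not searched. TGANTCA, searched on both strands, was present in 3 of these 17, namely Mmp3, Mmp10 and Mmp13, and in 6.75% of all 32851 promoters. It began 46 bases before the start in Mmp3, 63 in Mmp10 and 35 in Mmp13. The general E-box CANNTG was in 12 of 17 against 66.2% of all promoters. CAGCTG, which is one form of CANNTG, was in 5 of 17 (Adamts2, Adamts9, Adamts12, Timp2 and Timp4) against 13.0%. These are matches of letters and carry no measurement of binding.

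The library totals implied by the smallest steps between FPKM values (read fragments counted per kilobase of a transcript and divided by the size of the library) were 14.3 to 17.3, in units of 1e6 fragments. Between the control libraries the chi-square per gene was 0.722 ± 0.0306 (SE, 1037 genes) and between the knockout libraries 0.569 ± 0.0283 (SE, 879 genes), both under the value of 1 for independent reads, so each pair differed by less than sampling noise. Each of these pairs was therefore counted as 1 sample, so their values carry no replicate error. Between the full-length clones the chi-square per gene was 1.38 ± 0.0421 (SE, 1182 genes). Between the TAFH-deleted clones it was 1.77 ± 0.0552 (SE, 823 genes), so both were above 1. No label states separate cultures, so every p-value reflects the spread of these particular samples, which may be technical. Mouse Taf4a was at 11.1 and 11.5 FPKM in control and at 12.5 and 12.4 FPKM in the libraries labelled knockout, so its level does not separate these groups. Taf4a was at 14.5 and 15.0 FPKM in the full-length clones and at 14.7 and 19.2 FPKM in TAFH-deleted clones 1 and 2. The related Taf4b was at 1.64 and 6.13 FPKM in TAFH-deleted clones 1 and 2, and at 1.82 to 2.64 FPKM in the other groups. The part of this in the differences between the clones was not tested. Of the fibroblast markers, 5 of 6 reached 1 FPKM in 2 libraries, with summed levels of 505 to 566 FPKM in every group, whereas Thy1 stayed at or below 0.0773 FPKM. The sum came mostly from Vim, Col1a1 and Col1a2, at 110 to 146 FPKM. Whether the possible limit on reads per position described with the Timp genes below narrowed their spread was not tested. S100a4 was at 145.6 and 146.4 FPKM in control, 80.1 and 81.7 in knockout, 96.9 and 113.9 in full-length rescue, and 103.6 and 114.3 FPKM in TAFH-deleted rescue. Pdgfrb, of the same list, was at 73.7 and 75.1 FPKM in full-length rescue and 57.6 and 34.5 FPKM in TAFH-deleted rescue (adjusted p = 0.167, limma), and the part of such a shift in the results on the members was not tested. None of the 6 epithelial and 4 endothelial markers reached 1 FPKM in 2 libraries, and Epcam and Krt8 were listed at 0 throughout. Of 5 macrophage and leukocyte markers only Cd68 did. In bulk RNA, fewer cells of a type and less RNA per cell cannot be told apart.

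Of the 46 members, 27 reached at least 1 FPKM in at least 2 libraries: 11 Mmp, 12 Adamts and all 4 Timp genes. FPKM is scaled to transcript length, but the most abundant members lie near a possible limit on reads per position, described with the Timp genes below. The order at the top is therefore only a description of the listed values. The 3 inhibitors Timp1, Timp2 and Timp3 led in every group, in an order among themselves that differed between groups. Mmp14, a membrane-anchored protease that activates the precursor of the Mmp2 enzyme, was at 87.3 to 99.4 FPKM and ranked 4 in 3 groups and 5 in the knockout. Adamts1, a protease that cuts aggrecan and versican, was at 71.8 to 91.3 FPKM and ranked 4 in the knockout, 6 in full-length rescue and 5 in the other groups. In the control, Mmp3, Mmp11, Mmp19, Mmp2, Adamts2 and Adamts5 followed, each with 34.2 FPKM or more. Mmp2 ranked 9 of the 27 in control and knockout and 8 in full-length rescue, but 15 in TAFH-deleted rescue. In all, 11 members had at least 10 FPKM in every library.

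**Figure D1:**
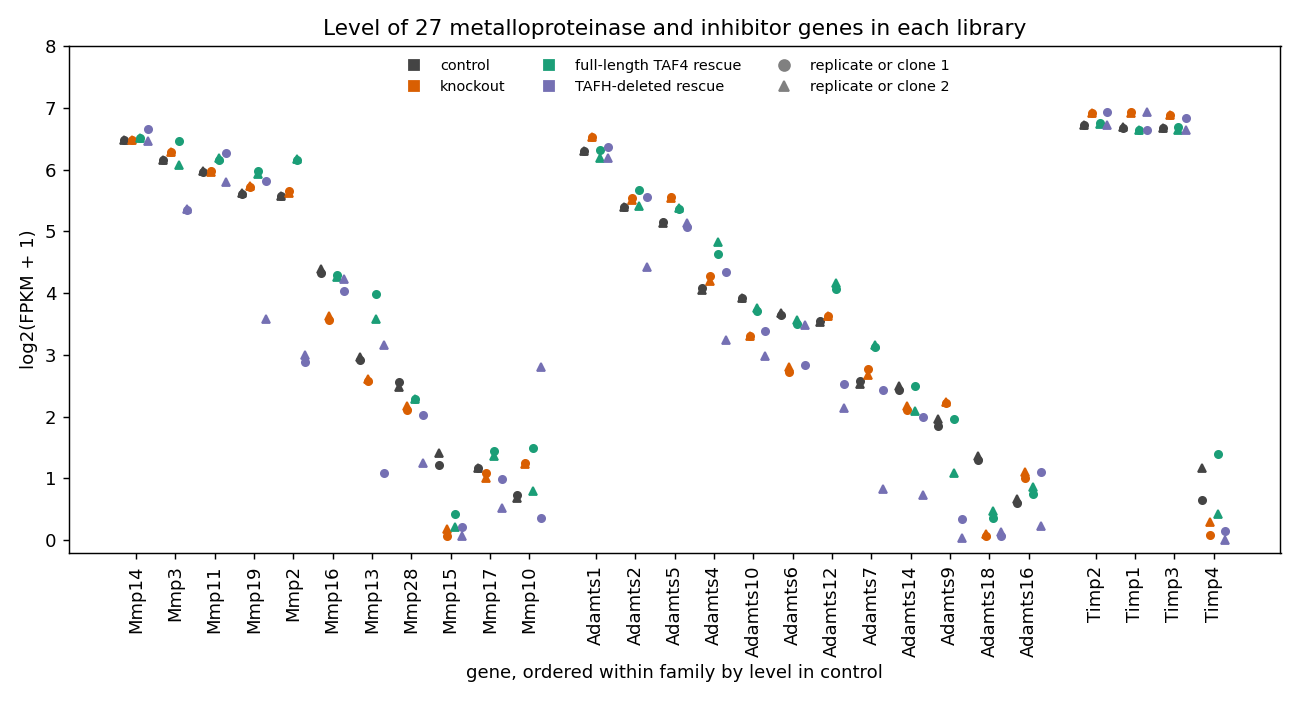
Level as log2(FPKM + 1) of the 27 members that reached 1 FPKM in 2 libraries, ordered within each family by the control level, with 1 point for each of the 8 libraries, coloured by group. Timp1, Timp2, Timp3 and Mmp14 lie close together in all libraries, while the TAFH-deleted clones lie far below the others for Mmp2.

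The comparison of TAFH-deleted with full-length rescue asks what the TAFH domain of TAF4 adds. Among the members, Mmp2 and Adamts12 were lower in both TAFH-deleted clones. Mmp2, the gelatinase that degrades denatured collagen and basement membrane, was 10.6-fold lower, and Adamts12, a protease that cuts cartilage oligomeric matrix protein, was 3.97-fold lower. These were the only calls, 2 of 27 members, in the limma fit over all 12025 genes, which called 315 genes (2.62%) in either direction, 203 of them lower (1.69%). Each form had 2 clones, and leaving out either full-length clone ended both calls.

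Mmp2 (mm9 chr8:95351227-95377319) was at 46.4 and 46.6 FPKM in control and at 49.3 and 48.4 FPKM in knockout. In the full-length clones it was at 69.9 and 71.0 FPKM, whereas the TAFH-deleted clones had 6.35 and 6.95 FPKM. The TAFH-deleted libraries were thus the only low ones and did not overlap with any other library. The means were 70.5 ± 0.801 and 6.65 ± 0.423 FPKM (SD, n = 2 each). Mmp2 fell by 3.23 ± 0.09 (SE) on the log2(FPKM + 1) scale in TAFH-deleted against full-length rescue, and its p adjusted by the Benjamini-Hochberg method over all genes was 0.0204 (limma). The call was lost when either full-length clone was left out, while the log2 difference stayed between -3.74 and -3.17 over 17 other settings.

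Adamts12 (mm9 chr15:10994545-11276622), whose promoter is shown above with its CAGCTG, was at 10.7 and 10.6 FPKM in control and at 11.4 and 11.4 FPKM in knockout. The full-length clones had 15.7 and 17.0 FPKM, while the TAFH-deleted clones had 4.80 and 3.43 FPKM. The full-length clones were the highest libraries and the TAFH-deleted clones the lowest. Adamts12 fell by 1.77 ± 0.21 (SE) on the log2(FPKM + 1) scale, with an adjusted p of 0.0471 (limma), just inside the threshold of 0.05. That call was lost in 6 of 17 other settings, among them the removal of either full-length clone, with adjusted p of 0.592 and 0.491, and a pseudocount of 0.1, with an adjusted p of 0.0525 (limma).

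**Figure D2:**
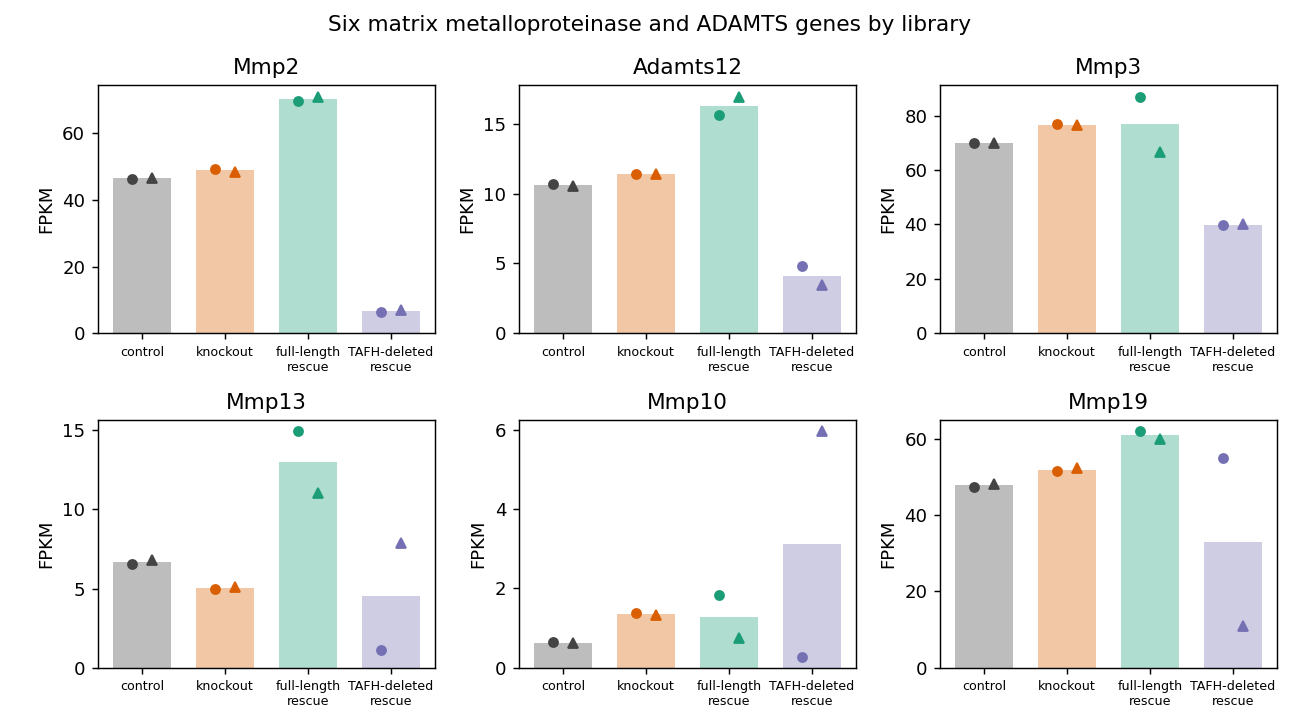
FPKM by library for Mmp2, Adamts12, Mmp3, Mmp13, Mmp10 and Mmp19, 1 panel for each gene with its own axis from 0; bars are group means and points are single libraries. For Mmp2, Adamts12 and Mmp3 both TAFH-deleted clones lie below all other libraries, whereas for Mmp13, Mmp10 and Mmp19 they lie far apart.

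Most other members were lower on average in the TAFH-deleted rescue without passing the test. By any amount, 21 of 27 were lower, against 43.9% of all genes tested, and 6 were higher, against 56%. The median log2 difference was -0.55 over the members and 0.06 over all genes. By family it was -0.65 for the 11 Mmp, -0.55 for the 12 Adamts and 0.08 for the 4 Timp genes. Both TAFH-deleted clones were below both full-length clones for 18 of 27 members (26.4% of all genes), and above them only for Timp1 (37.1% of all genes). At an unadjusted p under 0.05 there were 6 members (28.8% of all genes). At least 2-fold lower were 10 of 27 (8.78% of all genes), and at least 2-fold higher was only Mmp10 (4.94%). Some of these members had not passed the filter through both forms. Adamts18 and Mmp15 had passed through the control alone, and Adamts16 through knockout and TAFH-deleted rescue. Adamts9 and Mmp17 had passed through control, knockout and full-length rescue, with no TAFH-deleted library at 1 FPKM. Timp4 had passed through control and full-length rescue, so the filter favoured a full-length level above its TAFH-deleted level.

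**Figure D3:**
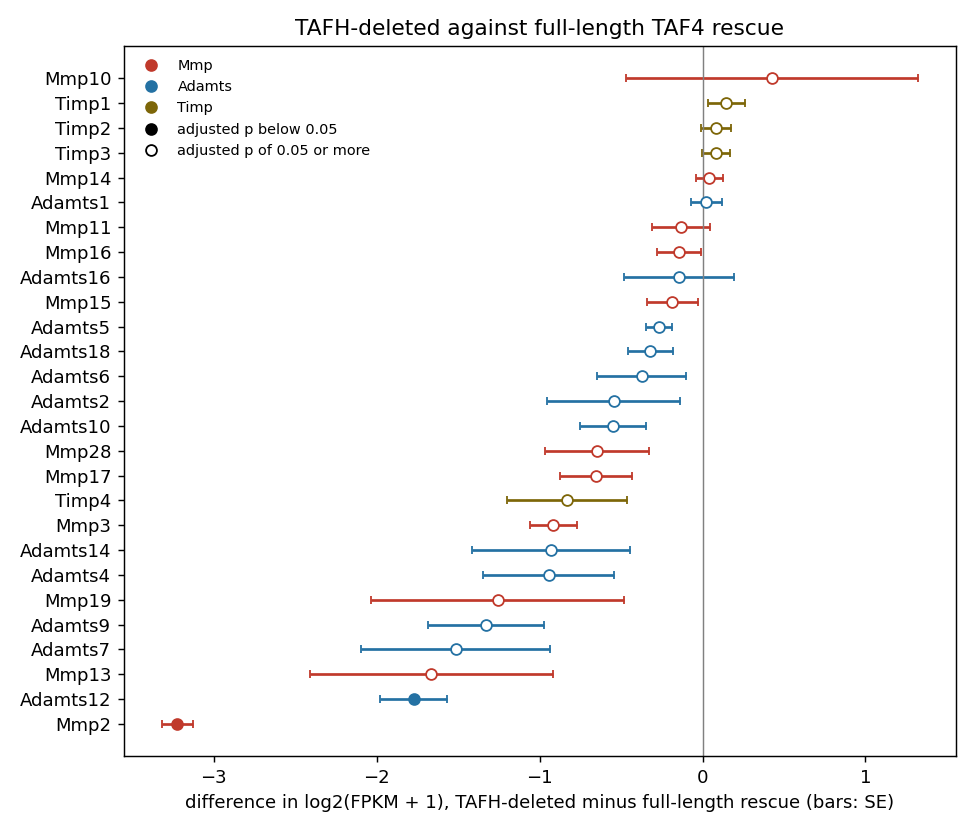
Log2 difference in FPKM + 1, TAFH-deleted minus full-length rescue, for each of the 27 members with its standard error from limma, coloured by family. Mmp2 lies far from 0 with a short error bar, while Mmp13, Adamts7 and Mmp19 lie to the same side with long error bars.

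The collagenase Mmp13 and the stromelysins Mmp3 and Mmp10, which cut many matrix proteins and can activate other precursors, lie in a cluster of 10 Mmp genes on chromosome 9 (mm9 chr9:7272514-7699416). The cluster spans 427 kb and no other symbol of the table lies within it. Only these 3 of its 10 genes were tested, and their promoters are printed above. Mmp3 was at 69.9 and 70.0 FPKM in control, 76.8 and 76.6 in knockout, 86.9 and 66.7 in full-length rescue, and 39.6 and 40.2 FPKM in the TAFH-deleted clones. Its TAFH-deleted clones were the lowest libraries and resembled each other, and its full-length clones differed. The difference of -0.92 ± 0.15 (SE) on the log2 scale had an adjusted p of 0.0623 (limma).

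Mmp13, the main rodent collagenase for fibrillar collagen, was at 6.52 and 6.81 FPKM in control and 4.97 and 5.08 FPKM in knockout. It reached 14.9 and 11.0 FPKM in the full-length clones, but 1.13 and 7.90 FPKM in TAFH-deleted clones 1 and 2. Mmp10 was at 0.652 and 0.612 FPKM in control, 1.39 and 1.34 in knockout, 1.82 and 0.744 in full-length rescue, and 0.279 and 5.96 FPKM in the TAFH-deleted clones. For both genes TAFH-deleted clone 1 was the lowest library, whereas clone 2 was the highest of all for Mmp10 and in the middle for Mmp13. The adjusted p-values of the rescue comparison were 0.229 for Mmp13, with a log2 difference of -1.67 ± 0.75 (SE), and 0.780 for Mmp10, with 0.43 ± 0.89 (limma).

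Mmp19, a secreted protease with a broad set of matrix substrates, was at 47.5 and 48.3 FPKM in control, 51.6 and 52.3 in knockout, and 61.9 and 60.0 FPKM in the full-length clones. TAFH-deleted clone 1 had 55.1 FPKM and clone 2 had 11.0 FPKM. One library thus sets the mean of this group, 33.0 ± 31.2 FPKM (SD, n = 2), and the adjusted p was 0.345 (limma). Its locus in the table overlaps Tmem198b, which had 44.4 FPKM in TAFH-deleted clone 1 and 34.4 FPKM in clone 2, and whether counting used the strand is not given in the sources used here.

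Membrane-anchored members behaved unlike one another. Mmp14 stayed within 87.3 and 99.4 FPKM in all libraries, with a log2 difference of 0.04 between the rescue forms (adjusted p = 0.769, limma). Mmp16, a close relative, was at 18.5 and 18.2 FPKM in full-length rescue and 15.3 and 17.8 FPKM in TAFH-deleted rescue. The groups did not overlap, but the log2 difference of -0.14 had an adjusted p of 0.523 (limma). Mmp17, which is held by a lipid anchor, was low, at 1.73 and 1.57 FPKM against 0.982 and 0.431 FPKM (adjusted p = 0.156, limma). Mmp15 was under 0.35 FPKM in all rescue clones. The secreted Mmp11 and Mmp28, both activated inside the cell by furin-type proteases, were at 69.9 and 71.4 against 76.3 and 54.4 FPKM and at 3.86 and 3.89 against 3.09 and 1.37 FPKM, with adjusted p of 0.660 and 0.263 (limma).

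Among the ADAMTS proteases that cut aggrecan or versican, Adamts9 had the largest ratio between the rescue forms, 13.5, but few fragments behind it. It was at 2.60 and 2.91 FPKM in control, 3.66 and 3.69 in knockout, 2.89 and 1.12 in full-length rescue, and 0.276 and 0.0211 FPKM in the TAFH-deleted clones. These TAFH-deleted values rest on 23 and 2 fragments, against 288 and 110 in the full-length clones. The TAFH-deleted clones were the lowest libraries, and the log2 difference of -1.33 ± 0.36 (SE) had an adjusted p of 0.112 (limma). Adamts4, an aggrecanase, was at 16.0 and 15.7 FPKM in control, 18.3 and 17.4 in knockout, 23.9 and 27.2 in full-length rescue, and 19.2 and 8.42 FPKM in the TAFH-deleted clones (adjusted p of the rescue comparison 0.216, limma). The full-length clones were its highest libraries, and only TAFH-deleted clone 2 lay below the control.

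Adamts5, the main aggrecanase of mouse cartilage, was at 34.6 and 34.2 FPKM in control and 45.8 and 45.7 FPKM in knockout. Full-length rescue had 40.0 and 40.6 FPKM and TAFH-deleted rescue 32.7 and 34.0 FPKM. Its knockout libraries were the highest and the TAFH-deleted clones the lowest, but the span was small, and the log2 difference of -0.27 ± 0.08 (SE) between the forms had an adjusted p of 0.125 (limma). Adamts1, its neighbour on chromosome 16 (both lie within mm9 chr16:85794073-85901370), was at 78.8 and 71.9 FPKM against 81.4 and 71.8 FPKM, and these ranges overlap.

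Adamts7, which like Adamts12 cuts cartilage oligomeric matrix protein, was at 4.98 and 4.80 FPKM in control, 5.83 and 5.36 in knockout, 7.77 and 7.92 in full-length rescue, and 4.39 and 0.779 FPKM in the TAFH-deleted clones. As for Adamts12, the full-length clones were the highest libraries and the TAFH-deleted clones the lowest, but the TAFH-deleted clones differed 5.64-fold from each other. The log2 difference of -1.51 ± 0.58 (SE) had an adjusted p of 0.184 (limma). The procollagen N-proteinases Adamts2 and Adamts14, which trim the amino end of fibrillar procollagens, were low in the same clone. Adamts2 was at 46.0 FPKM in TAFH-deleted clone 1 and 20.5 FPKM in clone 2, and Adamts14 at 2.97 and 0.667 FPKM. In the full-length clones they were at 49.6 and 41.5 FPKM and at 4.65 and 3.25 FPKM.

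Adamts10, linked to fibrillin microfibrils, was at 12.0 and 12.5 FPKM in full-length rescue and 9.44 and 6.88 FPKM in TAFH-deleted rescue (adjusted p = 0.175, limma). Its relative Adamts6 was at 10.3 and 10.8 FPKM against 6.12 and 10.2 FPKM (adjusted p = 0.417, limma). Adamts16 and Adamts18 were near or below 1 FPKM in all rescue clones.

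Timp1, Timp2 and Timp3 stayed between 98.2 and 121 FPKM in all libraries. Timp1, a broad inhibitor of secreted metalloproteinases, was at 101 and 102 FPKM in control, 121 and 119.8 in knockout, 98.2 and 98.4 in full-length rescue, and 98.5 and 120.4 FPKM in the TAFH-deleted clones. Timp2, which also takes part in the activation of the Mmp2 precursor, was at 104 and 104 FPKM in control, 119.7 and 119.8 in knockout, 106 and 105 in full-length rescue, and 121 and 104 FPKM in the TAFH-deleted clones. Timp3, which binds to the matrix and also inhibits ADAMTS enzymes, was at 100.4 and 100.5 FPKM in control, 117 and 117 in knockout, 102 and 98.2 in full-length rescue, and 113 and 99.0 FPKM in the TAFH-deleted clones. For Timp2 and Timp3 the highest FPKM were in the smallest libraries, those of the knockout and TAFH-deleted clone 1. Timp1 did not follow this order, with 963 fragments in TAFH-deleted clone 1 and 1340 in the larger library of clone 2. Timp3 had 7757 and 7783 fragments in control and 7772 and 7747 in knockout, and Timp2 had 6164 and 6162 against 6059 and 6062, so the higher knockout FPKM of these genes stand on about equal numbers of fragments in smaller libraries. The log2 differences of Timp1, Timp2 and Timp3 between the rescue forms were 0.08 to 0.15, with adjusted p of 0.439 to 0.580 (limma).

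These abundant transcripts were near a possible limit of the data. If each possible read start (each base on each strand) holds at most 1 read, FPKM cannot exceed a value set by the depth, which for a transcript of 2 kilobases was 129 FPKM in control and 150 FPKM in knockout. Timp2 used 79.7 to 85.6% of its possible starts, Timp3 76.9 to 83.1%, Timp1 54.1 to 75.3% and Mmp14 59.9 to 71.2%. For Mmp2 the share was 4.23 to 56.0%, and for Mmp3 25.0 to 65.8%. With FPKM adjusted for the starts in use, an alternative added after the data were seen, Mmp2 fell by 3.74 and Adamts12 by 1.85 on the log2 scale, and both remained called (adjusted p of 0.0196 and 0.0465, limma). Whether the limit shaped the narrow spread of Timp1, Timp2 and Timp3 was not tested. Timp1 is X-linked and its locus overlaps Araf and Syn1, and the 381 tested genes of the X chromosome had a median log2 difference of 0.59 between TAFH-deleted and full-length rescue. The part of these in the Timp1 values was not tested.

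**Figure D4:**
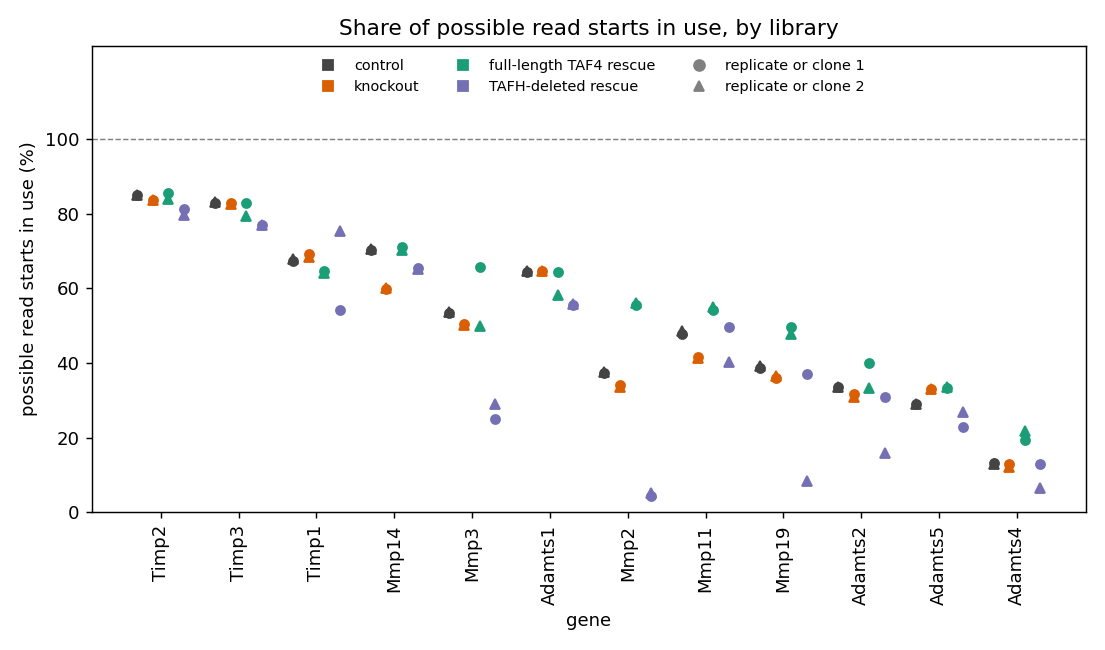
Share of possible read starts in use, in percent, for the members with over 20% in any library, 1 point for each library coloured by group. Timp2 and Timp3 lie highest, at 76.9 to 85.6%, while Mmp2 spans 4.23 to 56.0%.

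Timp4, the low member of the family, was at 0.574 and 1.24 FPKM in control, 0.0557 and 0.223 in knockout, 1.64 and 0.342 in full-length rescue, and 0.116 and 0 FPKM in the TAFH-deleted clones. At these levels single fragments decide the order, and the library listed at 0 allows no fold. The loci of Timp2, Timp3 and Timp4 also overlap other genes in the table, namely BC100451, Syn3 with 4930486F22Rik, and Syn2.

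Summed over families, the Mmp genes reached 349 and 351 FPKM in control, 351 and 351 in knockout, 423 and 396 in full-length rescue, and 298 and 235 FPKM in the TAFH-deleted clones. Adamts genes summed to 220.2 and 220.2 FPKM, 240.5 and 239 FPKM, 247 and 235 FPKM, and 208 and 157 FPKM in the same order of groups. The Timp sums were 307 and 308, 358 and 357, 308 and 302, and 332 and 323 FPKM. The protease sums were thus lowest in the 2 TAFH-deleted clones, but sums are set by the abundant members and do not show a fall of each gene. Among the most abundant Mmp genes in control, Mmp2 and Mmp3 were below both control libraries in TAFH-deleted clone 1. There Mmp11, Mmp14 and Mmp19 were above both control libraries. In clone 2 all of these genes were below both control libraries. The Timp sums come almost entirely from Timp1, Timp2 and Timp3, whose FPKM lay near the possible limit described above, so they are not set against the protease sums.

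The 2 TAFH-deleted clones differed from each other more than the full-length clones did. They were at least 2-fold apart in 14 of 27 members (13.9% of all genes), and the full-length clones in 4 (1.99% of all genes): Adamts9, Mmp10, Mmp15 and Timp4. TAFH-deleted clone 2 was at least 2-fold below clone 1 in 11 members (6.99% of all genes), including Mmp19, Adamts2, Adamts4, Adamts7 and Adamts14. Clone 1 was at least 2-fold below clone 2 in 3 (6.88%): Adamts18, Mmp10 and Mmp13. Mmp2, Mmp3 and Adamts12 were among the members on which the clones were less than 2-fold apart.

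**Figure D5:**
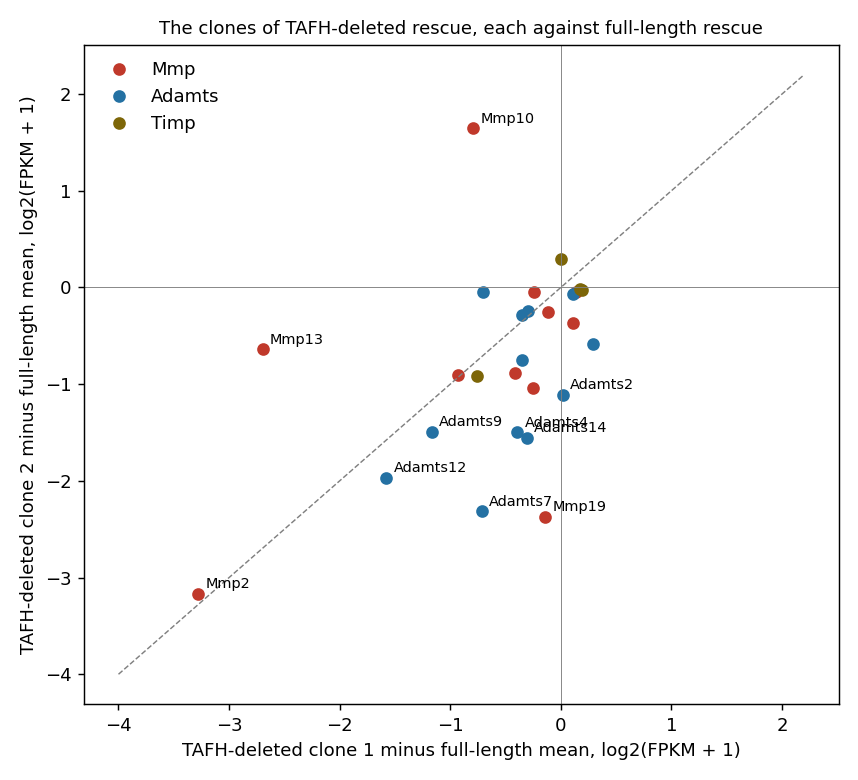
TAFH-deleted clone 2 against TAFH-deleted clone 1 for each tested member, both as the difference from the mean of the full-length clones in log2(FPKM + 1), coloured by family, with a dashed line of equal values. Mmp2 lies close to the line and far below 0, Mmp19 and Adamts7 lie below the line, and Mmp10 and Mmp13 lie above it.

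Knockout was compared with control to see what depends on Taf4. No member passed the limma test, nor did any other gene (0% of 12025), while at an unadjusted p under 0.05 there were 1108 genes (9.21%), 4 of them members: Adamts5, Adamts18, Mmp15 and Mmp16. Each side counted as 1 sample, so the fit took its spread from the rescue clones, and a member that did not pass is not shown to be unchanged. By size, 4 of 27 members (Adamts6, Adamts18, Mmp15 and Timp4) were at least 2-fold lower in knockout (8.51% of all genes) and 1, Mmp10, was at least 2-fold higher (1.88%). Adamts18 and Mmp15 had passed the filter only through the control, and Timp4 only through control and full-length rescue, so the filter favoured their low knockout values. Mmp10 had passed through groups other than the control, which favoured its higher knockout level. By any amount 16 of 27 were higher (45.1% of all genes) and 11 lower (54.9%), with a median log2 difference of 0.09 over the members and -0.03 over all genes.

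Adamts18, a secreted protease active in developing organs, was at 1.47 and 1.57 FPKM in control and 0.0436 and 0.0726 FPKM in knockout, from 118 and 126 against 3 and 5 fragments. Full-length clones had 0.277 and 0.394 FPKM and TAFH-deleted clones 0.0452 and 0.0927 FPKM. The control libraries alone were above 1 FPKM, 26.1-fold above knockout. Since the gene passed the filter only through the control, as did Mmp15, it had to differ. Mmp15, a membrane-type protease, showed the same order, at 1.32 and 1.66 FPKM in control, 0.0497 and 0.133 in knockout, 0.345 and 0.160 in full-length rescue, and 0.155 and 0.0453 FPKM in the TAFH-deleted clones. Their adjusted p for knockout against control was 0.220 and 0.280 (limma).

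Mmp16 and Adamts6 were well measured and lower in the knockout libraries. Mmp16 was at 19.0 and 19.9 FPKM in control and 10.9 and 11.4 FPKM in knockout, and the 4 rescue clones, at 15.3 to 18.5 FPKM, all lay between these groups. Its log2 difference of -0.75 had an adjusted p of 0.422 (limma). Adamts6 was at 11.5 and 11.8 FPKM in control, 5.63 and 5.98 FPKM in knockout, and 10.3 and 10.8 FPKM in full-length rescue, with a log2 difference of -0.89 and an adjusted p of 0.584 (limma). Adamts10 ran the same way, at 14.2 and 14.2 FPKM in control and 8.85 and 8.91 FPKM in knockout. Adamts5 ran the other way, with a log2 difference of 0.40 and an adjusted p of 0.450 (limma).

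Each rescue form was also set against the knockout. Both comparisons share the knockout sample, and the second shares its clones with the comparison of the forms, so their values are given side by side. No gene passed limma in either (0% in both), with an unadjusted p under 0.05 for 13.3% of all genes and 2 members (Mmp2 and Mmp16) in full-length rescue, and for 6.56% and 6 members in TAFH-deleted rescue. Mmp2 was 1.44-fold above knockout in full-length rescue and 7.35-fold below it in TAFH-deleted rescue. Adamts12 was 1.43-fold above and 2.77-fold below, in that order. Mmp13 was 2.58-fold above knockout in full-length rescue and 1.11-fold below it in TAFH-deleted rescue.

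At least 2-fold above knockout in full-length rescue were 4 members (5.7% of all genes): Mmp13, Mmp15, Adamts18 and Timp4. None was as far below (2.44%). Of these members, Adamts18 and Mmp15 had passed the filter only through the control, and Timp4 through control and full-length rescue, so their low knockout values were favoured by the filter. By any amount 18 members were higher in full-length rescue than in knockout (45.3% of all genes) and 9 lower (54.7%). In TAFH-deleted rescue 5 were at least 2-fold below (5.35%), namely Mmp2, Adamts7, Adamts9, Adamts12 and Timp4, and only Mmp10 was as far above (2.94%). Adamts9 had passed the filter through control, knockout and full-length rescue, and Timp4 through control and full-length rescue. The Timp4 values rested on 2 and 0 fragments in the TAFH-deleted clones and 1 and 4 in knockout. In TAFH-deleted rescue 7 members were higher than in knockout by any amount (55.7% of all genes) and 20 lower (44.2%). Against the control, full-length rescue had no gene past the limma test (0%), with 11.1% of genes and 3 members at an unadjusted p under 0.05. Adamts18 and Mmp15 were at least 2-fold below control there (6.5% of all genes) and Mmp10 above it (1.32%), and by any amount 15 members were higher (43.8%) and 12 lower (56.2%). Adamts18 and Mmp15 had passed the filter only through the control, and Mmp10 through groups other than the control. Mmp2 was 1.52-fold above control in full-length rescue, with an adjusted p of 0.259 (limma).

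The 19 members below the filter were 12 Mmp and 7 Adamts genes. The highest value was 0.801 FPKM, for Mmp23 in a control library. Mmp9, the gelatinase of leukocytes, was between 0.0201 and 0.339 FPKM, and the low cluster genes on chromosome 9, which encode among others the collagenase-like Mmp1a and Mmp1b and the macrophage elastase Mmp12, were at or below 0.397 FPKM. The low Adamts genes were at or below 0.133 FPKM, and Adamts19 was listed at 0 in all 8 libraries. Of the 19, 3 had at least 1 fragment in every library.

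The q-values of the authors' deposited table, which come from Cuffdiff on single transcripts and count each library, called many more genes. For control against knockout, the authors' deposited table gave 53.8% of transcripts a q-value under 0.05, among them 17 of 29 member transcripts, including Adamts18 (q = 9.55e-10) and Mmp15 (q = 1.19e-09). For full-length rescue against knockout the authors' deposited table called 25.8% of transcripts and 12 of 27 member transcripts, including Mmp2 (q = 1.64e-10), Mmp13 (q = 3.81e-13), Mmp16 (q = 2.08e-09) and Adamts12 (q = 3.26e-06). For TAFH-deleted rescue against knockout it called 0.957% of transcripts and 2 of 25 member transcripts in the authors' deposited table, Mmp2 (q = 4.99e-06) and Adamts9 (q = 0.00056).

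Genes that act with the members were counted in lists, of which those tested are given for TAFH-deleted against full-length rescue, and only there did any gene pass. Of 12 regulators of metalloproteinase activity 8 were higher, 4 lower and 1 was called, Lrp1, the endocytic receptor that clears several of these enzymes. Lrp1 was at 57.7 and 56.3 FPKM in the full-length clones and 29.1 and 30.0 FPKM in the TAFH-deleted clones, and fell by 0.93 ± 0.07 (SE) on the log2 scale (adjusted p = 0.0389, limma). Pcsk6, a convertase that cleaves precursor proteins, was at 28.1 and 20.8 against 2.67 and 8.68 FPKM (adjusted p = 0.102, limma). Reck, a membrane inhibitor of metalloproteinases, was at 23.2 and 19.9 against 16.2 and 10.5 FPKM, with an adjusted p of 0.167 (limma). Cd44, a hyaluronan receptor, was at 48.9 and 39.8 against 44.8 and 88.1 FPKM (adjusted p = 0.403, limma), so that only TAFH-deleted clone 2 stood apart.

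Of 15 other matrix-cleaving proteases 4 were higher, 11 lower and 1 called: Ctsk, the collagen-degrading cathepsin K, at 26.4 and 26.6 FPKM against 0.494 and 0.434 FPKM (adjusted p = 0.0204, limma). The serine proteases Htra1 and Htra3 were at 36.1 and 35.5 against 23.0 and 10.4 FPKM and at 5.50 and 3.24 against 3.45 and 0.677 FPKM, with adjusted p of 0.151 and 0.328 (limma). Tll1, a relative of the procollagen C-proteinase, was at 9.10 and 8.21 against 8.81 and 40.9 FPKM (adjusted p = 0.392, limma), with TAFH-deleted clone 2 alone high.

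None of 8 ADAMTS-like proteins and cofactors was called, with 3 higher and 5 lower. Adamtsl5 was at 41.2 and 31.7 against 11.7 and 29.2 FPKM (adjusted p = 0.266, limma), and Adamtsl4 was at 43.9 and 47.5 against 27.8 and 21.2 FPKM (adjusted p = 0.0694, limma). Adamtsl1 was at 1.52 and 0.666 against 0.367 and 0.00807 FPKM, and Adamtsl3 at 50.7 and 54.2 against 38.1 and 26.4 FPKM, with adjusted p of 0.173 and 0.116 (limma). All 4 were lower in both TAFH-deleted clones than in either full-length clone, but they are named for having the largest differences in this same comparison. The 3 higher genes of the list are not among them. Of 13 substrates 4 were higher, 9 lower and 1 called, the cartilage collagen gene Col2a1, at 9.26 and 9.04 FPKM against 1.14 and 0.417 FPKM (adjusted p = 0.0443, limma). Comp, the substrate of Adamts7 and Adamts12, was at 4.72 and 5.32 against 1.67 and 0.416 FPKM, with an adjusted p of 0.0864 (limma). Vcan, which encodes versican, was at 43.7 and 45.4 against 24.5 and 8.82 FPKM (adjusted p = 0.143, limma). Col4a2, a basement membrane collagen gene, was at 74.8 and 73.0 against 47.9 and 35.7 FPKM (adjusted p = 0.0749, limma). Of 18 AP-1, ETS and cytokine inducers 5 were higher, 13 lower and none called, and Il6 was at 49.0 and 44.7 against 6.75 and 0.419 FPKM (adjusted p = 0.0873, limma). Il1a was at 2.90 and 0.777 against 0.180 and 0 FPKM and its receptor gene Il1r1 at 38.7 and 37.2 against 19.1 and 13.2 FPKM, with adjusted p of 0.153 and 0.0659 (limma). Fos, an AP-1 subunit gene, was at 19.5 and 13.7 against 10.6 and 4.04 FPKM (adjusted p = 0.194, limma). The substrates and inducers named here were likewise picked by this same comparison, and none of the higher genes of either list is among them. The median log2 difference was 0.07 for the regulators, -0.17 for the other proteases, -0.66 for the ADAMTS-like genes, -0.36 for the substrates and -0.22 for the inducers, against 0.06 over all genes.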

How the data were processed

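RNA of 8 libraries, in 4 groups of 2, was sequenced with an Illumina mRNA protocol per the labels. The submitters' processing notes name CASAVA 1.8, TopHat, Cufflinks, Cuffdiff and the mm9 genome; other versions, strand use and duplicate handling are not given in the sources used here. The authors deposited FPKM for 30028 transcripts in each library, with transcript lengths in bases, and Cuffdiff p-values and q-values per the file headers, which are quoted only as theirs.

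FPKM were summed per gene and chromosome. Groups came from the titles. With 204.1 bases taken from the length, low values of 12371 single-transcript genes were whole multiples of 1 fragment within 0.05, which gave the fragment totals; counting error is larger for low genes. The test was limma 3.58.1 (R 4.3.3) with a mean-variance trend on log2(FPKM + 1), which understates changes of low genes, over the 12025 genes that reached 1 FPKM in 2 or more libraries. Genes whose longest transcript is under 300 bases (184) were left out. The control and the knockout pair entered as 1 mean each, giving 6 samples, 2 residual and 2.15 prior degrees of freedom. Comparisons (5) were two-sided, adjusted by Benjamini-Hochberg at 0.05; the script was tested on simulated data. All members past the filter are named. Of each list other than the cell type markers, up to 4 genes are named. Those called came first, then those with the largest difference between the rescue forms. Members and lists were chosen with earlier results of these data known. Alternatives were other pseudocounts, filters, scalings, sample sets, a replicate block, and leaving out libraries. Promoters and their motif counts used RefSeq on GRCm38.p6; gene positions are mm9, counted from 1.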

Additional observations from a re-analysis of the deposited data

Results flagged for a closer look

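In 6 tested members the rescue forms lay on opposite sides of the knockout mean in every clone, with both full-length clones above it and both TAFH-deleted clones below: Mmp2, Mmp17, Mmp28, Adamts7, Adamts12 and Timp4. The share of all genes with this pattern was not counted, so the number is not read as a trait of the members. The difference between the effects of the forms, which equals TAFH-deleted minus full-length rescue because the knockout sample is shared, passed the test for Mmp2, at -3.23 on the log2 scale (adjusted p = 0.0204, limma, Benjamini-Hochberg), and for Adamts12, at -1.77 (adjusted p = 0.0471). It did not pass for Adamts7 at -1.51 (adjusted p = 0.184), Timp4 at -0.83 (adjusted p = 0.226), Mmp17 at -0.65 (adjusted p = 0.156) and Mmp28 at -0.65 (adjusted p = 0.263), all by limma. For Timp4 the knockout libraries, at 0.0557 and 0.223 FPKM, themselves lay on both sides of a TAFH-deleted clone. Timp4 had also passed the filter only through control and full-length rescue, which favoured a high full-length level. No group had 4 samples or more, so single outlying libraries were not tested for.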

How the results depend on the processing

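The 2 clones a form and the single knockout and control samples limit every comparison, and low FPKM rest on few fragments. In TAFH-deleted against full-length rescue (2 members and 315 genes called), a pseudocount of 0.1 gave 1 member and 142 genes, no filter 3 members, short transcripts kept 1 and 106, only the longest transcript 1 and 29, and quantile normalization 180 genes. Each library counted separately gave 8 members and 4566 genes. Leaving out 1 library gave 0 to 18 members and 0 to 6722 genes: no calls without either full-length clone, 6722 genes without TAFH-deleted clone 1 and 4806 without clone 2.

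In the other comparisons, where nothing was called, the same settings gave calls in numbers that depended on the samples counted. For knockout against control these were 3 members and 1093 genes without a filter, 6 and 2857 with libraries separate, 24 and 9562 with only the groups compared, 15 genes with short transcripts, and 0 to 9 members and 0 to 2712 genes leaving out 1 library. For full-length rescue against knockout they were 3 and 541, 7 and 2998, 17 and 6829, 21 genes, and 0 to 12 and 0 to 3211. For TAFH-deleted rescue against knockout they were 2 and 379 without a filter, 6 and 1074 with libraries separate, 1 and 13 with short transcripts, and 0 to 18 and 0 to 4013 leaving out 1 library. For full-length rescue against control they were 4 and 1017, 5 and 2429, 12 and 6794 with only the groups compared, 33 genes, and 0 to 10 and 0 to 2953. Members at least 2-fold apart between knockout and control numbered 5, and 17 without a filter, because members below 1 FPKM then count, and 5 whichever library was left out.

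Same-numbered libraries did not deviate together (correlations of -0.0776 to 0.0571 over 6 pairs of groups). Where control or knockout was in the pair, this could not show pairing, because their libraries differed by less than sampling noise. Between the rescue forms the correlation was -0.0776, so pairing by clone number was not seen there. A replicate block, with libraries counted separately, gave 7 members and 3921 genes between the forms, 6 and 2019 for knockout against control, 4 and 2232 for full-length rescue and 6 and 461 for TAFH-deleted rescue against knockout, and 4 and 1622 for full-length rescue against control.

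Of 493 single log2 differences under other settings, 5 changed sign. Leaving out 1 library, Mmp10 ranged from -0.80 (without TAFH-deleted clone 2) to 1.65 between the forms and from -0.89 to 1.56 against knockout. Mmp15 came to 0.095 between the forms with quantile normalization. Timp4 in TAFH-deleted rescue against knockout came to 0.00698 with quantile normalization and ranged from -0.21 to 0.00074 (without knockout replicate 2) leaving out 1 library. The cause of these shifts was not tested.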
